A study of Mus musculus with 69 samples.

Results

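NF-kB signalling was followed in macrophages through 10 genes. They were the Rel-family subunits Nfkb1, Nfkb2, Rel, Rela and Relb, the inhibitors Nfkbia, Nfkbie and Nfkbiz, the ubiquitin-editing enzyme Tnfaip3 (A20), and the cytokine Tnf. The genes were taken by symbol from RNA-seq tables of mouse bone marrow-derived macrophages (BMDMs) and were 10 of the 24537 genes listed. Bone marrow of adult female mice was grown with M-CSF, the growth factor of macrophages, and the cells were then left untreated (basal) or given 20 ng/ml of IL-4, a type 2 cytokine. BMDMs of C57BL/6J (C57), BALB/cJ (BALB), NOD/ShiLtJ (NOD) and SPRET/EiJ (SPRET) mice had 3 basal libraries and 3 libraries after 24 h of IL-4, and those of PWK/PhJ (PWK) mice had 2 and 3. A time course of C57 and SPRET BMDMs had 2 libraries each at 0, 1, 6 and 24 h. The same times, with 2 libraries each, were sampled in Egr2 fl/fl BMDMs (Egr2WT) and in LyzM-Cre Egr2 fl/fl BMDMs (Egr2MKO), in which a Cre recombinase driven by a myeloid promoter deletes the transcription factor Egr2, so that both genotypes carried the floxed alleles. F1 crosses of C57 with SPRET and of C57 with NOD had 2 basal libraries and 2 after 24 h of IL-4 each, with expression split by allele. The study's methods describe biological replicates and the labels do not say which libraries share an animal, so p-values measure the spread between these libraries. In bulk RNA, fewer cells of a type and less RNA per cell cannot be told apart.

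In resting cells NF-kB dimers are held in the cytoplasm by IkB proteins, and signals from Toll-like, IL-1 and TNF receptors activate a kinase complex that marks the IkB proteins for destruction. The freed dimers enter the nucleus and switch on inflammatory genes, and their targets include Tnf and several of their own brakes, Nfkbia, Nfkbie and Tnfaip3 among them. Rela and Rel carry activation domains, Nfkb1 and Nfkb2 encode precursors that are processed to DNA-binding subunits, and Relb pairs mainly with the Nfkb2 product in the slower noncanonical branch. Nfkbiz encodes an atypical nuclear IkB that acts as a cofactor at secondary response genes. IL-4 signals through STAT6 and is known to restrain many inflammatory genes of macrophages.

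Expression was given in TPM, a transcript abundance scaled for gene length and library size, and responses are log2 fold changes on the log2(TPM + 1) scale, which understates the change of low genes. A gene was said to rise, fall or differ when its adjusted p, from limma with Benjamini-Hochberg adjustment over all genes tested, was under 0.05. Where the groups of a gene that passed are said not to overlap, this describes the same libraries and adds no further support. The 61 libraries of the strain, time-course and Egr2 tables held between 4.69 M and 32.9 M (mega, SI) tags. Summed TPM of 8 macrophage markers was between 9465 and 54007 in these libraries, while the T cell, B cell and erythroid markers were under 1 TPM in all of them. The macrophage sum was mostly Lyz2, at 5278 to 25933 TPM in the 5 strains, where Mertk and Fcgr1 were as low as 0.57 and 0.26 TPM. After 24 h of IL-4 it went from 23425 to 24132 TPM down to 16757 to 17982 TPM in C57, while in NOD the ranges overlapped. At 0 h it was 21019 to 21079 TPM in Egr2MKO and 24693 to 26223 TPM in Egr2WT. Mast cell or basophil markers summed to 10.6 to 21.7 TPM in the SPRET time course, and to 0.6 TPM or less in that of C57. Dendritic cell and NK cell sums were highest in SPRET at 24 h of the time course, at up to 6.7 TPM each. Fibroblast sums reached 2.36 TPM, in basal PWK. The part of these markers in the results was not tested. The sum of 5 neutrophil and progenitor markers moved with several groups. It was mostly S100a8, at 12.7 to 394 TPM in the 5 strains. Camp reached 12.3 TPM there, while Ly6g, Mpo and Elane stayed at or under 1.31 TPM. In C57 the sum was 87.5 to 113 TPM at baseline and 13.0 to 16.7 TPM after 24 h of IL-4, in NOD 38.5 to 50.4 and 13.6 to 15.7 TPM, in BALB 50.0 to 58.2 and 17.7 to 18.9 TPM, in PWK 355 to 363 and 304 to 321 TPM, and in SPRET 343 to 404 and 249 to 273 TPM. The part of these transcripts in the results was not tested. Egr2 was at 21.3 to 23.6 TPM in basal Egr2WT, at 75.6 to 101 TPM after IL-4, and at 0.85 to 7.05 TPM in all Egr2MKO libraries. The Egr2MKO libraries at 6 h were the least alike of any replicate pair, with a Pearson r across genes of 0.971.

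Sequence 5′ of the transcription start could be shown for 7 of the 10 genes (RefSeq, GRCm38.p6, the same assembly as mm10, which the tables use). It is shown because several members are both parts and targets of the pathway, so a κB element, the DNA motif that NF-kB dimers bind, may lie in their own promoters. Windows of Nfkb1, Relb and Nfkbiz were not analysed here. The κB consensus was found on either strand, within 250 bases before a start site, in 5 of these 7 genes, namely Nfkb2, Rel, Nfkbia, Nfkbie and Tnfaip3. Genes with several start sites have several windows, some of which overlap, and counted by window it was in 7 of 10, against 3.90% of 32851 promoter windows. It was not found in the windows of Rela and Tnf. The 250 bases before the start of Nfkbia, the gene of IkB-alpha, lie on the minus strand at chr12:55492648-55492897, and the bases matching the κB consensus are in capitals.
Nfkbia: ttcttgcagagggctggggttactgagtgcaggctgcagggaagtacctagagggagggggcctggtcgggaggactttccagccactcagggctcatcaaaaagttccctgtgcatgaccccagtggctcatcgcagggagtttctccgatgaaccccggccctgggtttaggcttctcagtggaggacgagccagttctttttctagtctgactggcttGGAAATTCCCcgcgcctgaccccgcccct

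Shorter stretches around matches in the other genes are given next on the same convention, with up to 10 bases on each side. They lie at chr17:45555584-45555613 (plus strand) in Nfkbie, at chr10:19015411-19015432 and chr10:19015516-19015545 (minus strand) in Tnfaip3, at chr11:23771041-23771071 (minus strand) in Rel, and at chr19:46304688-46304718 (plus strand) in Nfkb2.
Nfkbie: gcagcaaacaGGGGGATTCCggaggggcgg
Tnfaip3, proximal: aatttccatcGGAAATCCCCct
Tnfaip3, distal: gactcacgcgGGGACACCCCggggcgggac
Rel: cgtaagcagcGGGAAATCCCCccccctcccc
Nfkb2: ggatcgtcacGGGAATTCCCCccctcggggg

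The first matched base lay 29 bases before the start in Nfkbia, 106 in Nfkbie, 12 and 125 in Tnfaip3, 92 in Rel and 39 in Nfkb2, and Nfkb2 had further matches in this window and in those of its other start sites. In Rel and Nfkb2 the capitals cover matches on both strands that overlap by all but 1 base. For comparison, the STAT6 motif was found only in the window of Tnfaip3, against 5.85% of all windows, a PU.1 motif (GAGGAAGT) only in that of Rel, against 2.44%, and an EGR motif (GCGTGGGCG) in none of the 7 genes, against 0.54%. These are matches of letters in the reference (C57) sequence, and no binding was measured in these data.

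After 24 h of IL-4, Tnf and Nfkbiz fell in all 5 strains, while most other members passed in some strains only. Tnf encodes the inflammatory cytokine TNF. In C57 its basal libraries held 12.2, 11.2 and 9.45 TPM and its IL-4 libraries 7.88, 6.50 and 4.66 TPM. In BALB the values were 14.9, 13.3 and 11.03 TPM before and 5.86, 5.00 and 4.47 TPM after IL-4. NOD libraries stood far above these, with 85.6, 81.6 and 91.5 TPM at baseline and 29.5, 27.8 and 28.3 TPM after IL-4. PWK went from 26.8 and 28.6 TPM to 13.3, 10.5 and 10.8 TPM, and SPRET from 12.8, 13.5 and 12.8 TPM to 6.06, 6.37 and 6.11 TPM. In every strain all IL-4 libraries lay below all basal libraries. The log2 fold changes were -1.56 ± 0.12 (SE) in NOD, -1.20 ± 0.12 in BALB, -1.20 ± 0.14 in PWK, -0.96 ± 0.12 in SPRET and -0.72 ± 0.12 in C57, with the largest adjusted p, 4.5e-05, in the last.

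**Figure D1:**
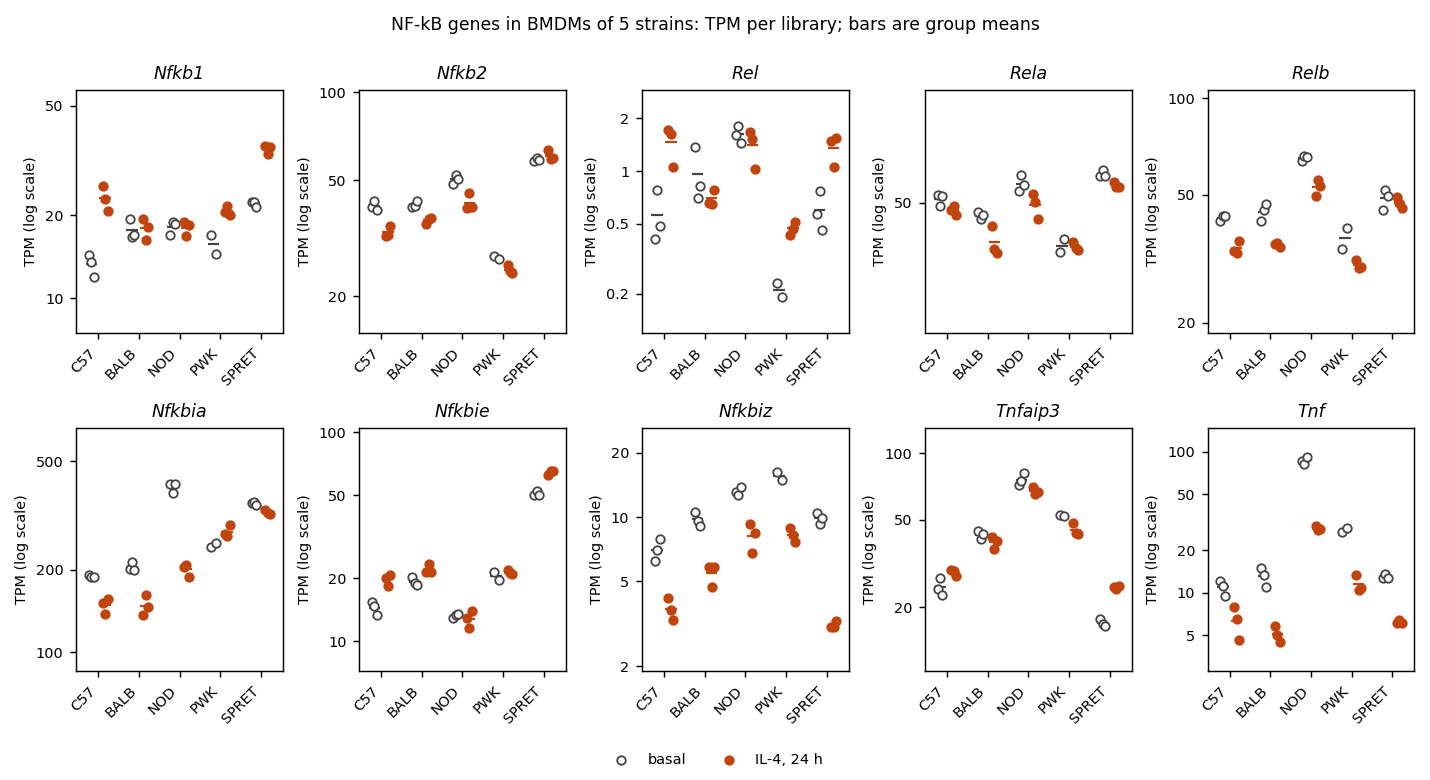
TPM of the 10 genes (log axis) in each basal and IL-4 library of the 5 strains, with a point for each library. Tnf of NOD stands highest both before and after IL-4, and Rel stays below 2 TPM throughout.

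Nfkbiz also fell in each strain. Its basal libraries held 6.24, 7.02 and 7.87 TPM in C57 and 16.3 and 14.9 TPM in PWK, and its IL-4 libraries 4.17, 3.67 and 3.30 TPM and 8.92, 8.21 and 7.68 TPM. SPRET changed most, from 10.4, 9.24 and 9.89 TPM to 3.07, 3.04 and 3.27 TPM. No IL-4 library of Nfkbiz overlapped with a basal library of its own strain. The log2 fold changes were -1.39 in SPRET, -0.84 in PWK, -0.77 in C57, -0.74 in BALB and -0.64 in NOD (SE 0.10 to 0.11), with adjusted p of 2.1e-05 in NOD and lower in the others.

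Nfkbia, which encodes IkB-alpha, the inhibitor that is degraded and remade in each round of NF-kB activity, was the most abundant member. In NOD it was at 413, 382 and 413 TPM in basal libraries and at 205, 209 and 188 TPM after IL-4, a log2 fold change of -1.0 ± 0.05 (adjusted p = 4.5e-13). It also fell in C57, from 192, 188 and 189 TPM to 151, 138 and 157 TPM (-0.35 ± 0.05, adjusted p = 1.1e-05), and in BALB, from 201, 214 and 201 TPM to 136, 161 and 146 TPM (-0.47 ± 0.05, adjusted p = 2.0e-07). The groups did not overlap in these 3 strains. In PWK the basal libraries held 244 and 252 TPM and the IL-4 libraries 271, 267 and 291 TPM, and the change did not pass the test (0.15, 95% interval 0.03 to 0.28, adjusted p = 0.066). In SPRET the change was -0.11 (95% interval -0.22 to 0.00, adjusted p = 0.099) and passed only after median-ratio scaling, which sets the typical gene of each library to the same level (-0.26, adjusted p = 0.011).

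Nfkbie (IkB-epsilon), another inhibitor that retains dimers in the cytoplasm, moved the other way. It rose in C57, from 15.4, 14.7 and 13.3 TPM to 20.1, 18.5 and 20.9 TPM (0.43 ± 0.06, adjusted p = 5.6e-06), and in SPRET, from 50.3, 52.4 and 50.3 TPM to 62.2, 65.4 and 65.1 TPM (0.33 ± 0.06, adjusted p = 0.00016). The groups did not overlap. In BALB it passed at 0.18 (adjusted p = 0.026), but not without IL-4 replicate 2 (0.15, adjusted p = 0.14), basal replicate 2 (0.18, adjusted p = 0.066) or basal replicate 3 (0.16, adjusted p = 0.091). In NOD and PWK the values were -0.05 and 0.06, and neither passed.

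Tnfaip3, which removes activating ubiquitin chains upstream of NF-kB, rose in SPRET, from 17.8, 16.9 and 16.5 TPM to 24.8, 24.3 and 25.1 TPM (0.51 ± 0.06, adjusted p = 1.8e-07). In C57 it rose from 24.4, 27.2 and 22.8 TPM to 29.6, 29.4 and 27.8 TPM (0.22, adjusted p = 0.0069), a call lost without basal replicate 3 (0.16, adjusted p = 0.055). The groups did not overlap in either strain. The decreases in NOD (-0.17, adjusted p = 0.038) and PWK (-0.21, adjusted p = 0.025) were small, and each was lost when single libraries were left out. In NOD these were IL-4 replicates 2 and 3 and basal replicates 2 and 3 (values -0.12 to -0.18, adjusted p from 0.055 to 0.19), and in PWK IL-4 replicates 2 and 3 and basal replicates 1 and 2 (-0.19 to -0.22, adjusted p from 0.082 to 0.12). The BALB value was -0.11 and did not pass.

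Among the subunits, Nfkb1 rose in 3 strains. It went from 14.4, 13.6 and 11.97 TPM to 25.6, 23.0 and 20.8 TPM in C57 (0.75 ± 0.08, adjusted p = 3.9e-08) and from 22.4, 22.4 and 21.5 TPM to 35.7, 33.4 and 35.5 TPM in SPRET (0.63 ± 0.08, adjusted p = 5.4e-07), with no overlap. In PWK it went from 17.02 and 14.5 TPM to 20.6, 21.6 and 20.2 TPM (0.38, adjusted p = 0.0026), a call lost without basal replicate 2 (0.27, adjusted p = 0.12). In BALB and NOD basal and IL-4 libraries overlapped, and the values were 0.02 (95% interval -0.15 to 0.19) and -0.01 (95% interval -0.18 to 0.16). After median-ratio scaling these became 0.15 (adjusted p = 0.039) and -0.19 (adjusted p = 0.013).

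Nfkb2 and Relb, the subunits of the noncanonical branch, fell modestly. Nfkb2 fell in C57 (-0.29), BALB (-0.17) and NOD (-0.26), and Relb in C57 (-0.31), BALB (-0.33), NOD (-0.30) and PWK (-0.26), with adjusted p up to 0.0097 for Nfkb2 in BALB. Median-ratio scaling ended the BALB calls, at -0.03 for Nfkb2 and -0.19 for Relb, and added one for Nfkb2 in PWK (-0.26, adjusted p = 0.0084). The Relb call in PWK was lost without basal replicate 2 (-0.15, adjusted p = 0.23). Neither gene passed in SPRET.

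Rela, the main activating subunit, was the steadiest member in TPM, between 37.3 and 60.5 TPM in single libraries. It fell in BALB (-0.22, adjusted p = 0.0029, but -0.08 and not passing after median-ratio scaling) and in NOD (-0.18, adjusted p = 0.016). The NOD call was lost without IL-4 replicate 3 (-0.12, adjusted p = 0.13) or basal replicate 2 (-0.14, adjusted p = 0.087). In SPRET a Rela decrease appeared only after that scaling (-0.24, adjusted p = 0.0022).

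Rel (c-Rel) was at 0.19 to 1.81 TPM in the 5-strain libraries, against 7.40 to 24.7 TPM in the time course and 12.8 to 38.7 TPM in the Egr2 libraries. These low levels limit its results here. The test needed 1 TPM in 2 or more libraries, and Rel met this only through its higher groups, such as C57 after IL-4. All its basal libraries in C57, PWK and SPRET held under 1 TPM. Its calls in the 5 strains, also those between strains further on, are therefore description only, as is their place in the counts. Rel rose in C57, from 0.41, 0.78 and 0.49 TPM to 1.72, 1.62 and 1.05 TPM (0.66 ± 0.13, adjusted p = 0.00027), and in SPRET, from 0.57, 0.77 and 0.46 TPM to 1.49, 1.05 and 1.53 TPM (0.56 ± 0.13, adjusted p = 0.0012). The groups did not overlap in these strains, and no change passed in BALB, NOD or PWK.

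Counted over the 10 members, 4 rose and 5 fell in C57, against 15.0% and 20.5% of all 11907 genes tested. In BALB 1 rose and 6 fell, against 9.45% and 24.8%. In NOD none rose and 7 fell, against 28.2% and 6.07%. In PWK 1 rose and 4 fell, against 18.6% and 6.08%, and without basal replicate 2 only 2 members passed. In SPRET 4 rose and 2 fell, against 31.4% and 12.9%. Changes over 2-fold were rare among members, none in C57, Tnf in BALB and PWK, Tnf and Nfkbia in NOD and Nfkbiz in SPRET, against 3.80%, 2.08%, 2.08%, 1.19% and 3.94% of all genes in C57, BALB, PWK, NOD and SPRET. The median response of the members was -0.19, -0.21, -0.22, -0.07 and 0.00 in C57, BALB, NOD, PWK and SPRET, beside -0.04, -0.11, 0.12, 0.08 and 0.11 over all genes.

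The split of calls depended on scaling. Of all genes called, 82.3% were higher in NOD, 75.3% in PWK, 70.8% in SPRET and 27.6% in BALB. After median-ratio scaling these shares were 41.4%, 49%, 48.1% and 57.8%. Under that scaling 2 members rose and 3 fell in BALB, against 17.2% and 12.6% of all genes. In NOD none rose and 9 fell, against 11.7% and 16.5%. In PWK 1 rose and 5 fell, against 11.1% and 11.6%, and in SPRET 4 rose and 4 fell, against 18.2% and 19.7%.

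**Figure D2:**
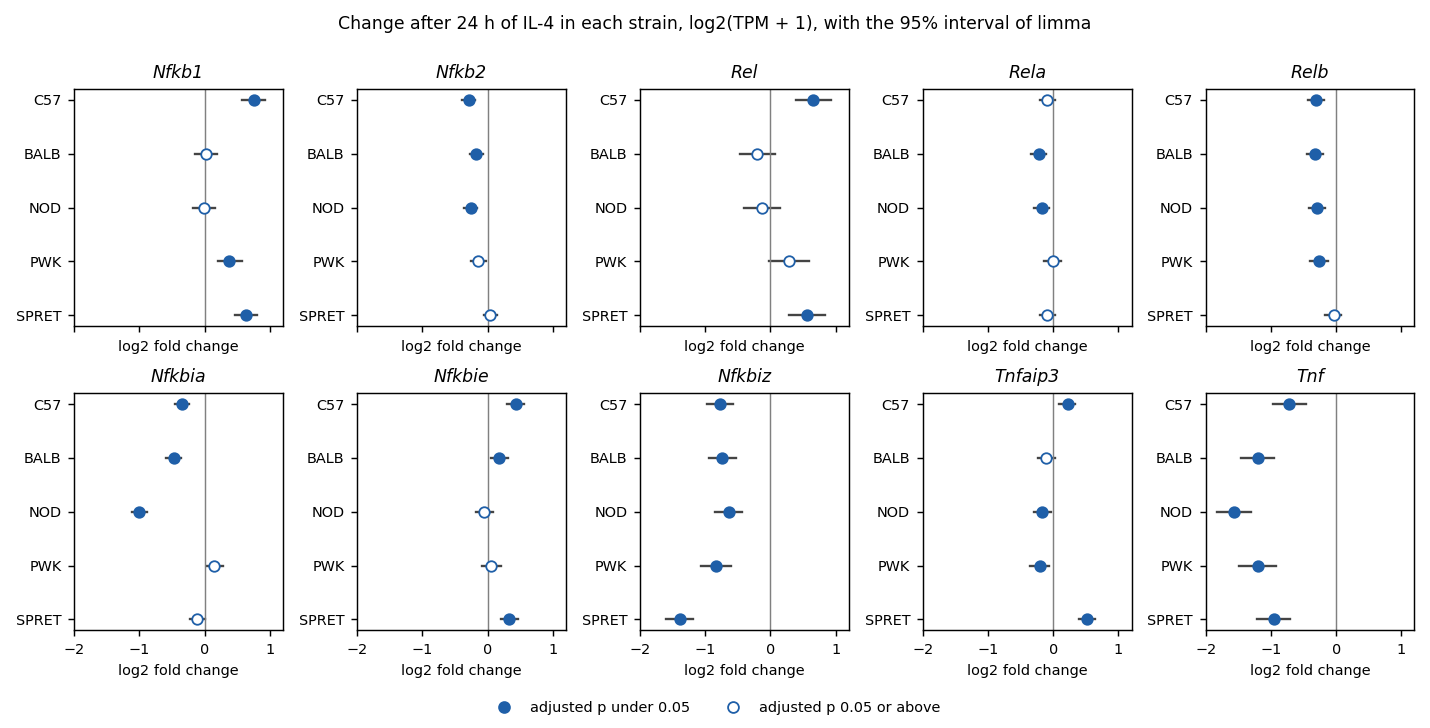
Log2 fold change after 24 h of IL-4 on the log2(TPM + 1) scale for each gene and strain, with 95% intervals from limma. Tnf and Nfkbiz lie below 0 in all 5 strains, and Nfkb1 lies above 0 with its interval in C57, PWK and SPRET.

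Basal levels differed between strains for most members, and the order of strains was not shared between genes. Tnf stood highest in NOD, with a mean of 86.2 TPM, then in PWK (27.7 TPM), BALB (13.1 TPM), SPRET (13.0 TPM) and C57 (10.9 TPM), and only BALB and SPRET overlapped among neighbours in this order. Tnfaip3 was at 75.8 TPM in NOD, 52.1 in PWK, 42.7 in BALB, 24.8 in C57 and 17.1 TPM in SPRET, with no overlap between neighbours. Nfkbia was at 403 TPM in NOD, 351 in SPRET, 248 in PWK, 205 in BALB and 190 TPM in C57, again without overlap. Nfkbie was at 51.0 TPM in SPRET, well above PWK (20.6 TPM), BALB (19.3 TPM), C57 (14.5 TPM) and NOD (13.2 TPM), where PWK overlapped with BALB and C57 with NOD. Nfkbiz was at 15.6 TPM in PWK, 13.2 in NOD, 9.85 in SPRET, 9.76 in BALB and 7.04 TPM in C57, and SPRET and BALB overlapped.

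The largest basal difference was that of Tnf in NOD, at 2.87 ± 0.12 above C57 on the log2 scale (adjusted p = 2.1e-16). NOD was also above C57 for Tnfaip3 (1.58), Nfkbia (1.08), Nfkbiz (0.82), Rel (0.75), Relb (0.61), Nfkb1 (0.43), Nfkb2 (0.30) and Rela (0.13). That made 9 members higher and none lower, against 20.1% and 54.1% of all genes, and the median of all genes was itself at -0.30 in this comparison. The Rela call was lost without C57 basal replicate 2 (0.10, adjusted p = 0.16) or 3 (0.14, adjusted p = 0.054) and without NOD basal replicate 2 (0.09, adjusted p = 0.20) or 3 (0.13, adjusted p = 0.065). Nfkbie was at -0.12 (adjusted p = 0.090), and turned to 0.26 (adjusted p = 0.00046) after median-ratio scaling, under which all 10 members were higher, against 36.3% of all genes. The higher share of all calls was 27.1% before and 51.8% after that scaling.

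PWK exceeded C57 in Tnf (1.27), Nfkbiz (1.05), Tnfaip3 (1.04), Nfkbie (0.48), Nfkbia (0.38) and Nfkb1 (0.22), and was lower in Nfkb2 (-0.57), Rela (-0.39), Rel (-0.36) and Relb (-0.21). The count was 6 higher and 4 lower, against 19.7% and 41.5% of all genes, whose median was -0.16. After median-ratio scaling it was 6 higher and 2 lower, with Relb at 0.00 and Rel not passing, while the higher share of all calls went from 32.2% to 50.3%. Of all genes, 30.9% were then higher and 30.5% lower. Nfkb1 was lost without C57 basal replicate 3 (0.15) or PWK basal replicate 1 (0.11), Relb without PWK basal replicate 1 (-0.10), and Rel without C57 basal replicate 2 (-0.26) or PWK basal replicate 1 (-0.38) or 2 (-0.34). Without PWK basal replicate 2, Relb was at -0.32.

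SPRET exceeded C57 most in Nfkbie (1.75 ± 0.06, adjusted p = 3.2e-18), and further in Nfkbia (0.88), Nfkb1 (0.69), Nfkb2 (0.52), Nfkbiz (0.44), Rela (0.21) and Relb (0.20), while Tnfaip3 was lower (-0.51, adjusted p = 6.4e-08). These were 7 higher and 1 lower, against 35.5% and 32.9%. Relb did not pass after median-ratio scaling (0.16, adjusted p = 0.072). In BALB 5 members were higher and 1 lower than in C57, against 24.8% and 18.4%. Tnfaip3 led at 0.76, followed by Nfkbiz at 0.42, Nfkb1 and Nfkbie at 0.39, and Rel at 0.33, while Rela was lower at -0.14. The BALB difference of Rel was lost without BALB basal replicate 1 (0.18) or C57 basal replicate 1 (0.26) or 3 (0.30), and also under median-ratio scaling (0.29, adjusted p = 0.061). That of Rela was lost without any of BALB basal replicates 1, 2 and 3 or C57 basal replicates 1 and 3 (-0.12 to -0.15). All 4 basal comparisons share the C57 libraries.

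The response itself was compared with that of C57 by an interaction contrast, again with the C57 libraries shared. In NOD 6 members responded more negatively than in C57, against 33.3% of all genes that differed in either direction. Those more negative were Tnf (-0.84 ± 0.17, adjusted p = 0.00071), Rel (-0.79), Nfkb1 (-0.76), Nfkbia (-0.65), Nfkbie (-0.47) and Tnfaip3 (-0.38). In BALB 3 members responded more negatively than in C57, Rel (-0.86), Nfkb1 (-0.73) and Tnfaip3 (-0.33), against 10.4%. Without C57 basal replicate 1 the BALB count was 5. In PWK 4 members differed in either direction, against 22.4%. Nfkbia lay above the C57 response (0.51, adjusted p = 6.2e-05, and 0.33 with adjusted p = 0.051 after median-ratio scaling), and Tnfaip3 (-0.43), Nfkbie (-0.37) and Nfkb1 (-0.37) lay below it. The PWK difference of Nfkb1 was lost without C57 IL-4 replicate 1 (-0.29), C57 basal replicate 3 (-0.30), PWK IL-4 replicate 1 (-0.36) or 3 (-0.35), or PWK basal replicate 1 (-0.26).

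In SPRET 5 members differed from C57, against 33.4%. Only the more negative Nfkbiz response (-0.62, adjusted p = 0.0013) was also found after median-ratio scaling (-0.76). Nfkb2 (0.33), Tnfaip3 (0.30), Relb (0.26) and Nfkbia (0.24) were above C57 and no longer passed under it, while Nfkb1 (-0.31) and Nfkbie (-0.29) then lay below, which left 3 members. Under that scaling 15.1% of all genes lay below C57. Relb was also lost without SPRET IL-4 replicate 1 (0.24) or SPRET basal replicate 1 (0.21), and Nfkbia without C57 IL-4 replicate 2 (0.19). The median difference of all genes was 0.17 in NOD, 0.16 in SPRET and 0.13 in PWK. The higher share of all calls went from 78% to 39.5% in NOD, from 75% to 43.9% in PWK, from 73.2% to 43.2% in SPRET and from 34.4% to 52.6% in BALB when median-ratio scaling was used.

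The time course asked when the members moved. In C57, Rel had the largest rise at 1 h among the members. It was at 7.40 and 7.98 TPM at 0 h, 20.8 and 19.7 TPM at 1 h, 12.01 and 13.3 TPM at 6 h and 16.8 and 17.5 TPM at 24 h, with every IL-4 library above both basal ones. The log2 fold changes were 1.29, 0.65 and 1.06 (SE 0.09, adjusted p up to 0.00029). Nfkb1 was highest at 6 h, at 34.6 and 34.5 TPM at 0 h, 45.8 and 46.2 TPM at 1 h, 59.8 and 62.2 TPM at 6 h and 49.2 and 48.2 TPM at 24 h (0.40, 0.80 and 0.48, adjusted p up to 0.00085). Nfkbiz was lowest at 6 h, with 12.4 and 12.9 TPM at 0 h, 6.29 and 6.11 TPM at 1 h, 4.44 and 4.56 TPM at 6 h and 6.37 and 7.05 TPM at 24 h (-0.93, -1.31 and -0.83, adjusted p up to 6.7e-05).

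Tnf in C57 fell at 1 h and 6 h. It was at 38.8 and 41.1 TPM at 0 h, 25.99 and 20.7 TPM at 1 h, 24.9 and 24.1 TPM at 6 h and 41.7 and 45.5 TPM at 24 h, and only the 1 h and 6 h libraries lay below the basal ones. The log2 fold changes were -0.76 (adjusted p = 0.0037), -0.68 (adjusted p = 0.0024) and 0.12 (95% interval -0.16 to 0.41, adjusted p = 0.50), and that at 1 h did not pass without its replicate 2 (-0.60, adjusted p = 0.056). Tnfaip3 rose at 1 h (0.30, adjusted p = 0.0081) and 24 h (0.34, adjusted p = 0.00052) and was at -0.02 at 6 h. The 1 h call of Tnfaip3 was lost without IL-4 1 h replicate 2 (0.27) or basal replicates 1 (0.30) or 2 (0.31).

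Nfkbie, Nfkbia and Nfkb2 fell late in this C57 series, to -0.38, -0.41 and -0.38 at 24 h (adjusted p up to 0.00031). At 6 h Nfkbie (-0.19, adjusted p = 0.041) and Nfkbia (-0.20, adjusted p = 0.049) passed narrowly. Nfkbie was lost without IL-4 6 h replicate 2 (-0.12) or basal replicate 1 (-0.14), and Nfkbia without any 1 of the 4 libraries (-0.18 to -0.21, adjusted p from 0.12 to 0.17). In counts, 3 members rose and 2 fell at 1 h (2.73% and 1.22% of 12088 genes), 2 and 4 at 6 h (10.9% and 9.55%), and 3 and 4 at 24 h (18.2% and 21.1%). Without IL-4 1 h replicate 2, the count at 1 h was 3 members in all.

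The C57 responses at 24 h were not the same in the time course and in the 5-strain libraries. Tnf was at -0.72 in the 5 strains and 0.12 in the time course, and Nfkbie at 0.43 and -0.38. Basal levels also differed, with Tnf at 9.45 to 12.2 TPM against 38.8 and 41.1 TPM, and Nfkbie at 13.3 to 15.4 TPM against 47.4 and 51.0 TPM. Relb fell in the 5 strains (-0.31), while its time-course means were 36.6 TPM at 0 h and 37.4 TPM at 24 h. Nfkb1, Rel and Tnfaip3 rose and Nfkbiz, Nfkbia and Nfkb2 fell at 24 h in both. In SPRET, Nfkbie rose in the 5-strain libraries (0.33), while its time-course means were 93.9 TPM at 0 h and 90.6 TPM at 24 h. The basal order of C57 and SPRET also depended on the libraries. Tnf had basal means of 10.9 TPM in C57 and 13.0 TPM in SPRET in the 5 strains, and of 39.9 and 14.1 TPM in the time course. Nfkbiz had 7.04 and 9.85 TPM, then 12.7 and 10.95 TPM. The other members kept their order. For Nfkbie the time-course means were 49.2 and 93.9 TPM, beside 14.5 and 51.0 TPM. The 5-strain and time-course libraries were fitted in separate models, and the difference between them was not tested.

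**Figure D3:**
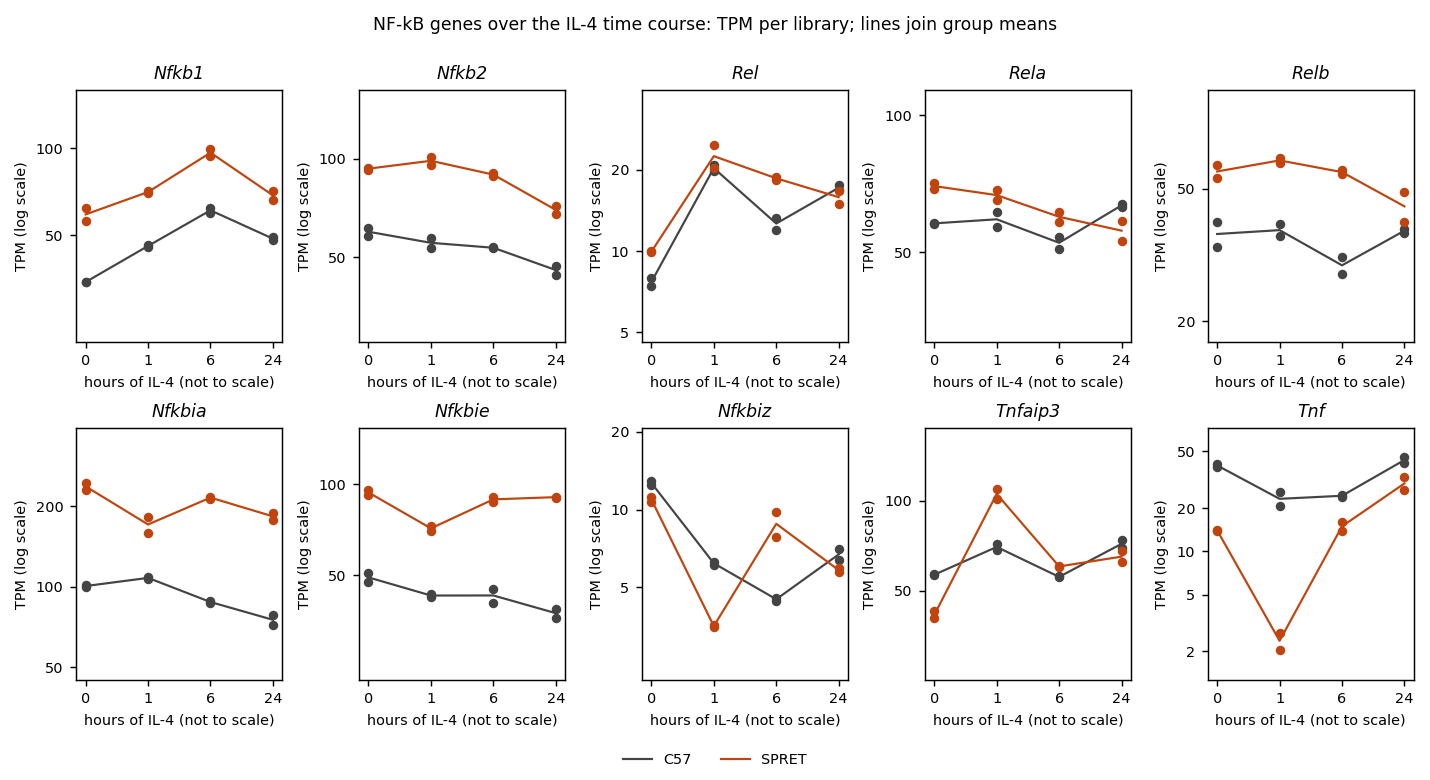
TPM (log axis) of the 10 genes over hours of IL-4 in C57 and SPRET BMDMs, with a point for each library and lines through the means of 2 libraries. Tnf of SPRET drops to 2.04 and 2.71 TPM at 1 h and ends above its basal level, while Tnfaip3 of SPRET peaks at 1 h.

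In SPRET, Tnf, Tnfaip3 and Nfkbiz each had their largest change at 1 h. Tnf was at 14.2 and 13.9 TPM at 0 h, 2.04 and 2.71 TPM at 1 h, 13.9 and 16.1 TPM at 6 h and 33.1 and 26.7 TPM at 24 h, so that the 1 h libraries lay below and the 24 h libraries above the basal ones. The log2 fold changes were -2.17 ± 0.13 (adjusted p = 1.8e-07), 0.08 (adjusted p = 0.69) and 1.03 ± 0.13 (adjusted p = 4.7e-05), beside -0.96 at 24 h in the 5-strain libraries. Tnfaip3 was at 40.5 and 42.7 TPM at 0 h, 110 and 102 TPM at 1 h, 60.8 and 60.1 TPM at 6 h and 67.9 and 62.4 TPM at 24 h (1.32, 0.53 and 0.63, SE 0.06), and every IL-4 library lay above the basal ones. Nfkbiz was at 10.7 and 11.2 TPM at 0 h, 3.56 and 3.52 TPM at 1 h, 7.83 and 9.79 TPM at 6 h and 5.94 and 5.72 TPM at 24 h (-1.40, -0.29 and -0.81). The 6 h value of Nfkbiz passed at adjusted p = 0.038. It was -0.15 without IL-4 6 h replicate 1, -0.32 or -0.26 without basal replicate 1 or 2, where it did not pass, and -0.44 without IL-4 6 h replicate 2.

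Rel rose in SPRET at 1, 6 and 24 h (1.09, 0.84 and 0.62) and so did Nfkb1 (0.25, 0.70 and 0.22). Nfkb1 at 1 h was lost without either 1 h library (0.24 and 0.27) or basal replicate 1 (0.18), and at 24 h without IL-4 24 h replicate 2 (0.17) or basal replicate 1 (0.14). Nfkbia fell at 1 h (-0.47) and 24 h (-0.37), and Nfkbie at 1 h (-0.39). Nfkb2 (-0.41), Relb (-0.35) and Rela (-0.32) fell at 24 h, and Rela at 6 h (-0.22). Relb was lost under median-ratio scaling (-0.28, adjusted p = 0.055) and without IL-4 24 h replicate 1 (-0.20) or basal replicate 1 (-0.29), and Rela at 6 h without IL-4 6 h replicate 1 (-0.19) or basal replicate 1 (-0.20).

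In counts, SPRET had 3 members higher and 4 lower at 1 h (4.83% and 3.92% of all genes), 3 and 2 at 6 h (16.9% and 13.7%), and 4 and 5 at 24 h (14.8% and 21.8%). Without IL-4 6 h replicate 1 or basal replicate 1 the count at 6 h was 3. At 24 h the higher share of all calls was 40.6%, and 51.1% after median-ratio scaling, with 4 members higher and 4 lower. Under that scaling 18.7% of all genes were higher and 17.9% lower.

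At 1 h the responses of the 2 strains differed for Tnf (-1.41 ± 0.18, adjusted p = 0.0010), Tnfaip3 (1.02 ± 0.08, adjusted p = 2.3e-05) and Nfkbia (-0.57 ± 0.09, adjusted p = 0.0037), 3 members against 2.32% of all genes. At 6 h Nfkbiz (1.02 ± 0.14, adjusted p = 0.00037), Tnf (0.76, adjusted p = 0.018) and Tnfaip3 (0.55, adjusted p = 0.00078) were above C57, against 5.85%. The Tnf difference at 6 h was lost without replicate 2 of any of the C57 and SPRET 0 h and 6 h groups (0.66 to 0.75, adjusted p from 0.051 to 0.075). At 24 h 6 members differed, against 28.9%. They were Tnf (0.91, adjusted p = 0.0028), Nfkbie (0.33) and Tnfaip3 (0.30) above C57, and Rela (-0.45), Rel (-0.45) and Nfkb1 (-0.27) below it. The sum of neutrophil and progenitor markers went from 66.2 and 94.1 TPM at 0 h to 6.4 and 8.0 TPM at 24 h in C57, and from 67.8 and 73.6 TPM to 71.8 and 91.7 TPM in SPRET, and its part in these differences was not tested.

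Of the 24 h differences, those of Tnf and Rela passed whichever single library was left out. Nfkbie was lost without C57 basal replicate 1 (0.28), where 3 members passed in all. Rel was lost without C57 24 h replicate 2, C57 basal replicate 1, SPRET 24 h replicate 2 or SPRET basal replicate 1 (-0.37 to -0.44). Nfkb1 was lost without C57 24 h replicate 1, C57 basal replicate 1 or 2, SPRET 24 h replicate 1 or SPRET basal replicate 2 (-0.20 to -0.27), and also under median-ratio scaling (-0.21, adjusted p = 0.057). Tnfaip3 was lost without C57 24 h replicate 1, SPRET 24 h replicate 1 or SPRET basal replicate 1 (0.24 to 0.26).

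In the Egr2 experiment Tnf and Nfkbiz fell at each time in the floxed control. Tnf of Egr2WT was at 26.6 and 23.9 TPM at 0 h, 5.94 and 6.65 TPM at 1 h, 13.4 and 15.9 TPM at 6 h and 11.95 and 11.1 TPM at 24 h, always below the basal libraries (-1.85, -0.75 and -1.07, SE 0.11, adjusted p up to 0.00034). Nfkbiz went from 15.3 and 16.6 TPM to 7.39 and 8.07, then 5.66 and 5.21, then 7.27 and 6.50 TPM (-0.96, -1.39 and -1.10, adjusted p up to 0.00014). Rel rose at each time (1.10, 0.94 and 0.69) and Nfkb1 at 6 h and 24 h (0.68 and 0.41). Tnfaip3 rose at 1 h (0.35, adjusted p = 0.0049), a call lost without IL-4 1 h replicate 2 (0.32) or basal replicate 2 (0.33). At 24 h Nfkbia (-0.68), Relb (-0.66), Nfkb2 (-0.46) and Rela (-0.35) fell as well.

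The Egr2WT counts were 2 higher and 2 lower at 1 h (2.34% and 0.894% of 12079 genes), 2 and 5 at 6 h (16.2% and 9.21%), and 2 and 6 at 24 h (12.0% and 18.2%). Of the 6 h decreases, those of Relb (-0.19), Nfkbia (-0.23) and Nfkbie (-0.39) depended on single libraries. Relb was lost without any 1 of the 4 libraries (-0.15 to -0.23), Nfkbia without IL-4 6 h replicate 1 (-0.20) or 2 (-0.26) or basal replicate 1 (-0.15), and Nfkbie without IL-4 6 h replicate 2 (-0.35) or basal replicate 1 (-0.33). Without IL-4 6 h replicate 2 or basal replicate 1, 4 members passed in all. The higher share of all calls was 63.8% at 6 h and 39.7% at 24 h, and 49.3% and 52.5% after median-ratio scaling, with unchanged counts of members. Under that scaling 12% of all genes were higher and 12.3% lower at 6 h, and 15.8% and 14.3% at 24 h.

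Against this control, the members that differed in Egr2MKO were all higher, and the inhibitor Nfkbia and the subunits Nfkb2 and Relb were so at every time. At 24 h Relb was at 19.0 and 20.3 TPM in Egr2WT and at 36.6 and 34.02 TPM in Egr2MKO (0.82 ± 0.06, adjusted p = 8.8e-07). Nfkb2 was at 29.3 and 29.3 TPM against 51.6 and 50.1 TPM (0.78 ± 0.07, adjusted p = 2.2e-06). Nfkbia was at 56.0 and 57.8 TPM against 101 and 96.2 TPM (0.78 ± 0.07, adjusted p = 6.4e-06). Tnf was at 11.95 and 11.1 TPM against 18.7 and 18.03 TPM (0.63 ± 0.11, adjusted p = 0.00083), and Rela at 42.8 and 42.2 TPM against 58.4 and 60.5 TPM (0.48 ± 0.07, adjusted p = 0.00023). The genotypes did not overlap for any of these 5 genes. As these genes had already passed the test, with 2 libraries in each group, this adds no further support. Nfkb1 passed at 0.17 (adjusted p = 0.027), but not without any 1 of the 4 libraries (0.15 to 0.20) nor after median-ratio scaling (0.04).

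**Figure D4:**
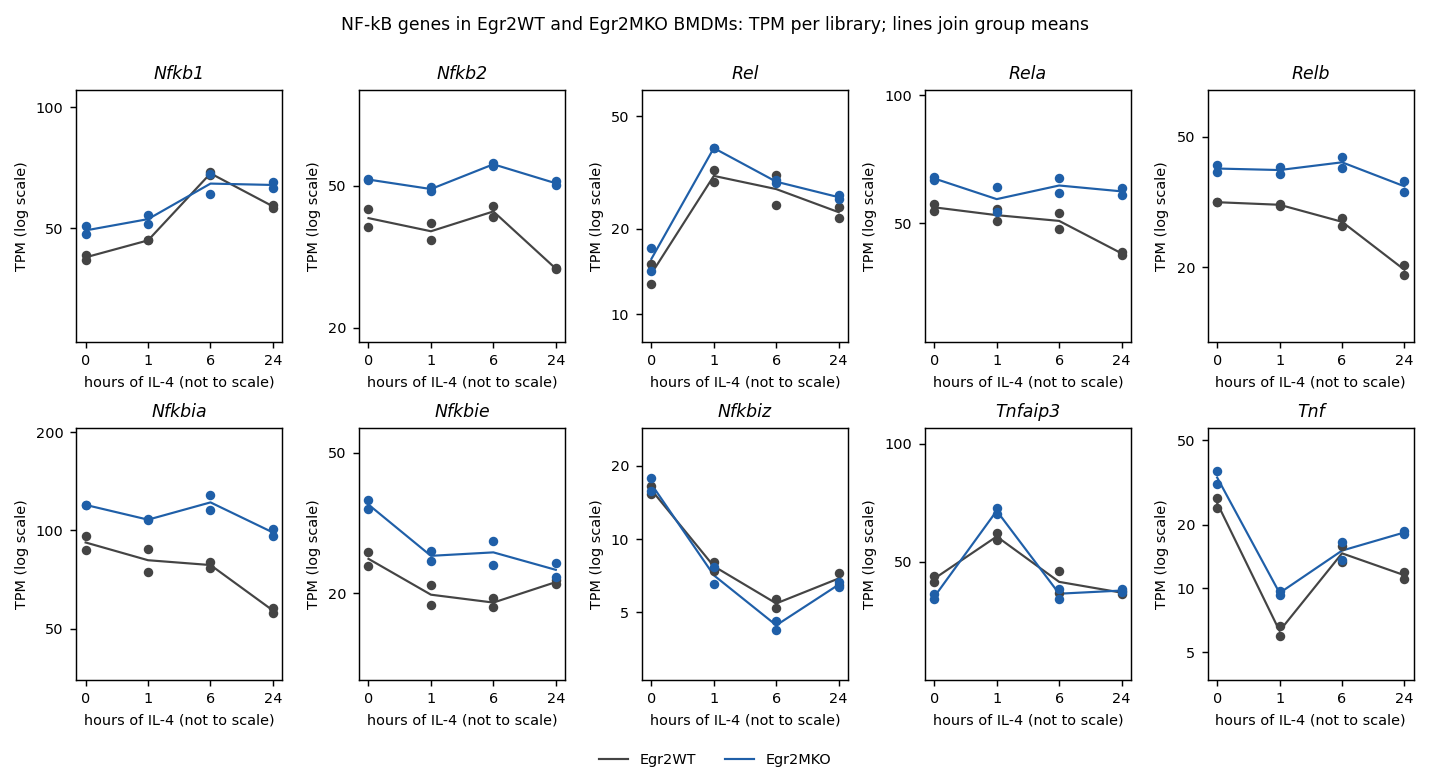
TPM (log axis) of the 10 genes over hours of IL-4 in Egr2WT and Egr2MKO BMDMs, with a point for each library and lines through the means of 2 libraries. Nfkb2, Relb and Nfkbia of Egr2MKO lie above Egr2WT at every time.

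The genotypes already differed before IL-4. At 0 h Nfkbie was at 26.2 and 23.9 TPM in Egr2WT and 36.7 and 34.7 TPM in Egr2MKO (0.49 ± 0.09, adjusted p = 0.0034), Nfkbia at 96.5 and 87.3 against 120 and 119 TPM (0.38, adjusted p = 0.0056), Nfkb2 at 0.35 and Relb at 0.33 above the control. Tnf (0.39, adjusted p = 0.043) and Nfkb1 (0.22, adjusted p = 0.024) also passed, but each was lost without any 1 of the 4 libraries (0.29 to 0.48 for Tnf, 0.19 to 0.25 for Nfkb1). Nfkbia was lost without Egr2WT basal replicate 2 (0.31, adjusted p = 0.058), where 3 members passed in all.

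At 1 h the differences were 0.39 for Nfkb2, 0.34 for Relb, 0.41 for Nfkbia, 0.53 for Tnf, 0.35 for Nfkbie and 0.21 for Tnfaip3. Tnf was lost without Egr2MKO 1 h replicate 2 (0.50) or Egr2WT 1 h replicate 1 (0.46), Nfkbie without either Egr2MKO 1 h library (0.31 and 0.40) or Egr2WT 1 h replicate 1 (0.26), and Tnfaip3 without any 1 of the 4 (0.19 to 0.24) and after median-ratio scaling (0.20, adjusted p = 0.058). Without Egr2MKO 1 h replicate 2 or Egr2WT 1 h replicate 1, 3 members passed. At 6 h Nfkbia (0.63), Relb (0.59), Nfkbie (0.45), Nfkb2 (0.43) and Rela (0.27) were higher, Rela being lost without Egr2MKO 6 h replicate 2 (0.21) or Egr2WT 6 h replicate 1 (0.21). The counts of higher members were 6, 6, 5 and 6 at 0, 1, 6 and 24 h, against 5.95%, 6.04%, 11.5% and 25.9% of all genes, and no member was lower. At 24 h the median of all genes was at 0.12, and the higher share of all calls went from 69.3% to 45.9% after median-ratio scaling. Under that scaling 5 members were higher, against 14.9% of all genes. The sum of neutrophil and progenitor markers was 7.2 to 7.7 TPM in Egr2MKO and 13.7 TPM or more in Egr2WT at 24 h, and its part was not tested.

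Whether the response to IL-4 differed between the genotypes was tested as an interaction. At 1 h no member passed in limma (0.0166% of all genes did), 1 passed at an unadjusted p under 0.05, and fitting only the groups compared also called 0. At 6 h again no member passed (1.10% of all genes), 4 passed at an unadjusted p under 0.05, and fitting only the groups compared called 0, while 1 passed without Egr2MKO 6 h replicate 1. At 24 h Relb (0.48 ± 0.09, adjusted p = 0.0034), Nfkb2 (0.42 ± 0.09, adjusted p = 0.010) and Nfkbia (0.40 ± 0.11, adjusted p = 0.027) fell less in Egr2MKO. The difference was in that direction for 8.78% of all genes. Nfkbia was lost without 6 of the 8 libraries, all but Egr2MKO 24 h replicate 2 and Egr2WT basal replicate 2 (0.33 to 0.43, adjusted p from 0.058 to 0.10). After median-ratio scaling only Relb of the 3 passed (0.37, adjusted p = 0.019) and Nfkbie did so at -0.50 (adjusted p = 0.024), and the higher share of all calls went from 69.5% to 44.8%. The difference for Tnf was 0.24 (95% interval -0.10 to 0.59), with an adjusted p of 0.38.

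The F1 of C57 and SPRET places both alleles in the same cells. Its values are TPM that the authors weighted by allele, they are compared only between the alleles of 1 gene, and no test was run on them. The lengths listed with these values are longer than the exon lengths (for Nfkb1 106892 against 4091 bases), so levels are not set beside the parental TPM, only the ratios are. Between 35.3% and 42.8% of all genes were listed at 0 in a column, and no member was. Nfkbie, which of the members differed most between the parents at baseline, was close to even between alleles in the F1. The C57 allele had 28.3 and 30.5 and the SPRET allele 28.98 and 30.7 at baseline, log2 ratios of C57 over SPRET of -0.04 and -0.01 beside a parental -1.75. After IL-4 the ratios were -0.27 and -0.04 beside a parental -1.65.

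Nfkbia and Nfkb1 gave similar pictures. Nfkbia had allele ratios of 0.09 and -0.21 at baseline and -0.10 and 0.11 after IL-4, beside parental values of -0.88 and -1.12. Nfkb1 had 0.05 and 0.06 at baseline and 0.09 and 0.16 after IL-4, beside -0.69 and -0.58. Tnfaip3 leaned to the SPRET allele (-0.08 and -0.13, then -0.31 and -0.39), whereas the C57 parent was higher (0.51 and 0.22).

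Nfkbiz was higher from the C57 allele in all 4 F1 libraries. The C57 allele had 15.8 and 16.8 at baseline and 3.62 and 3.96 after IL-4, and the SPRET allele 12.6 and 11.8, then 1.84 and 2.34. The ratios were 0.31 and 0.47, then 0.70 and 0.57, beside parental values of -0.44 and 0.19. In the basal libraries of the time course Nfkbiz was instead higher in C57 (mean 12.7 TPM) than in SPRET (10.95 TPM). Tnf had no common direction at baseline (0.40 and -0.08). After IL-4 the C57 allele of Tnf had 9.52 and 7.60 and the SPRET allele 14.02 and 15.01, ratios of -0.51 and -0.90, beside a parental 0.01.

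**Figure D5:**
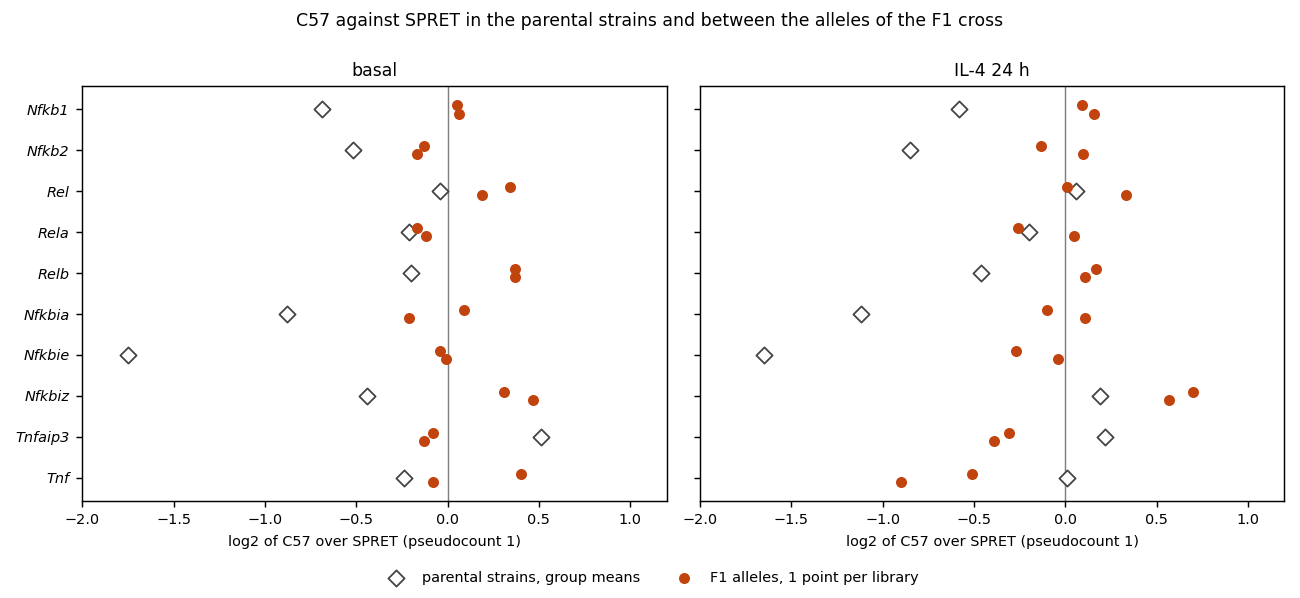
Log2 ratio of C57 over SPRET for each of the 10 genes, between alleles in the 2 F1 libraries of each condition and between the parental strains. The parental point of Nfkbie lies at -1.75 at baseline and the F1 points near 0.

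In the F1 of C57 and NOD 78.9% to 83.6% of all genes were listed at 0 in a column, and Nfkb1, Rel, Nfkbia, Nfkbiz and Tnf were at 0 in all 8 columns. Tnfaip3, which was at 75.8 TPM in NOD and 24.8 TPM in C57 parents (a log2 ratio of C57 over NOD of -1.58), had allele ratios of 0.07 and -0.30 at baseline. After IL-4 the ratios of Tnfaip3 were -0.80 and 0.28, of Rela -2.70 and -0.43, and of Relb 2.26 and 0.61, so that replicates differed by over 1 on the log2 scale and gave no direction for Tnfaip3.

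The wider pathway was described with 2 lists, 41 genes of NF-kB signalling (receptors, adaptors, kinases and other inhibitors) and 30 target genes, all tested in the 5 strains. Traf1 is in both. Of the signalling genes, 5 rose and 13 fell in C57 (12.2% and 31.7%, beside 15.0% and 20.5% of all genes). The counts were 7 and 11 in SPRET (17.1% and 26.8%, beside 31.4% and 12.9%), 3 and 19 in BALB (7.32% and 46.3%, beside 9.45% and 24.8%), 6 and 6 in PWK (14.6% each, beside 18.6% and 6.08%), and 7 and 7 in NOD (17.1% each, beside 28.2% and 6.07%). After median-ratio scaling they were 5 and 12 in C57, 4 and 14 in SPRET, 5 and 14 in BALB, 3 and 11 in PWK, and 3 and 15 in NOD. The shares of all genes that rose and fell were then 18.8% and 18.1% in C57 and 18.2% and 19.7% in SPRET. They were 17.2% and 12.6% in BALB, 11.1% and 11.6% in PWK, and 11.7% and 16.5% in NOD. Ripk2, the kinase that relays NOD1 and NOD2 signals, went from 10.4 to 42.3 TPM in C57 (1.92), from 12.2 to 46.4 TPM in PWK (1.85) and from 7.15 to 27.4 TPM in SPRET (1.80). In SPRET Traf5 changed most, from 15.5 to 69.5 TPM (2.10). Irak3, a brake on Toll-like receptor signalling, fell by 1.16 in C57, by 1.14 in BALB and by 1.57 in SPRET on the log2 scale.

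Of the 30 target genes, 13 rose and 11 fell in C57 (43.3% and 36.7%), 11 and 11 in SPRET (36.7% each), 8 and 15 in both BALB and PWK (26.7% and 50%), and 1 and 22 in NOD (3.33% and 73.3%), to be read beside the same shares of all genes. After median-ratio scaling the counts were 13 and 10 in C57, 10 and 13 in SPRET, 10 and 12 in BALB, 5 and 15 in PWK, and 1 and 25 in NOD, where 11.7% of all genes then rose and 16.5% fell. Their median response in NOD was -0.54, beside 0.12 for all genes. The genes with the largest decreases there were Cxcl1 (84.8 to 18.4 TPM, -2.15), Il6 (10.5 to 2.06 TPM, -1.95) and Ccl3 (571 to 150 TPM, -1.92), which encode a neutrophil-attracting chemokine, an acute-phase cytokine and a macrophage chemokine. The median was -0.08 in C57, -0.23 in BALB, -0.19 in PWK and -0.05 in SPRET. In C57 Cd83, an activation marker of antigen-presenting cells, rose from 4.42 to 27.5 TPM (2.39), while Clec4e fell from 1009 to 375 TPM (-1.43). In SPRET Serpinb2 rose from 0.63 to 22.4 TPM (3.84) and Cxcl2 from 23.2 to 191 TPM (2.99), while Nos2 fell from 24.5 to 3.66 TPM (-2.45). The target genes thus held both directions in each strain.

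In the time course, 11 of 29 target genes tested rose and 3 fell at 1 h in C57, beside 2.73% and 1.22% of all genes, and 11 and 7 in SPRET, beside 4.83% and 3.92%. Ier3, an early response gene, was up by 2.36 on the log2 scale in C57 and by 2.0 in SPRET at that time. In Egr2MKO at 24 h, 20 of 41 signalling genes were above Egr2WT and 3 below (48.8% and 7.32%, beside 25.9% and 11.5% of all genes), with a median of 0.23 beside 0.12 for all genes. Of 29 target genes, 11 were above and 6 below (37.9% and 20.7%), with a median of 0.09. After median-ratio scaling the signalling counts were 12 above and 6 below and the target counts 9 and 8, beside 14.9% and 17.5% of all genes.

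Genes with a pattern like that of each member were sought over the 10 group means of the 5 strains, among 4273 genes that varied. The group means share libraries and strains, and r is given as a description. The pattern of Nfkbie was close to that of Rasal3 (Pearson r = 0.987), which was likewise highest in SPRET after IL-4. Tnfaip3 was most like Gem (0.981) and Id2 (0.976), and Tnf like Gm14005 (0.956) and Spryd7 (0.955), all 4 highest in basal NOD. Nfkbiz was most like Sod2 (0.956), itself on the target list, and Arhgap24 (0.952). Nfkb1 was most like Socs2 (0.945) and Timp1 (0.937), Nfkb2 like Dbi (0.950) and Bdh2 (0.948), Relb like Plxna2 (0.949) and 4933416M07Rik (0.906), and Rela like Dbi (0.920) and Cd1d1 (0.914). Rel (Errfi1, 0.881, and Flywch2, 0.874) and Nfkbia (Foxp4, 0.871, and Mir6970, 0.870) had no gene above 0.9.

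Among the members themselves, Nfkb2 and Rela were the most alike pair over these means (r = 0.90), followed by Nfkb2 with Relb, Rela with Relb, Nfkb1 with Nfkbie and Nfkbiz with Tnf (0.78 each). Nfkbie and Tnfaip3 were the most opposed (-0.70), the first lowest and the second highest in NOD.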

How the data were processed

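STAR was used by the authors to map each library to its own strain's genome, MMARGE to move the alignments to mm10 coordinates, and HOMER to count exons and give TPM. These deposited TPM values were used as given, together with the total tags per library in the headers. Counts per gene were not used here, so precision comes from replicates. The allele values of the F1 crosses are TPM that the authors weighted by the ratio of reads overlapping strain differences, times 10, and their depth is unknown. Columns of fold changes and p-values from the authors' DESeq2 comparisons and a table of human macrophages were not used.

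Log2(TPM + 1) was fitted with limma 3.58.1 (R 4.3.3) in 1 model per table with a mean for every group and a trended prior, for genes that reached 1 TPM in 2 or more libraries (11907, 12088 and 12079 genes). All 10 members passed this filter, Rel in the 5 strains through its higher groups. Benjamini-Hochberg adjustment covered all of these. The procedure was tested on simulated data. Members and lists were chosen with earlier results of these data known. Genes named beyond the members were at most the 3 of a list with the largest change over 2-fold in a comparison, and the 2 most alike to each member, of which 1 is not reported here. Alternatives were pseudocounts of 0.1 and 5 TPM, no filter, median-ratio scaling, only the groups compared, a replicate block, and leaving out each library.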

Additional observations from a re-analysis of the deposited data

Results flagged for a closer look

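The responses to IL-4 of 3 members differed between SPRET and C57 in the time course by over 2-fold and past an adjusted p of 0.05 in limma's interaction contrast. At 1 h Tnfaip3 differed by 1.02 on the log2 scale, with 1.32 in SPRET and 0.30 in C57. At 1 h Tnf differed by -1.41, with -2.17 in SPRET and -0.76 in C57. At 6 h Nfkbiz differed by 1.02, with -0.29 in SPRET and -1.31 in C57. Each group had 2 libraries, and each of these differences passed whichever single library was left out. Under the other alternatives they passed too, but their size moved, to between 0.96 and 1.05 for Tnfaip3, between -1.75 and -0.70 for Tnf and between 0.69 and 1.16 for Nfkbiz. With a pseudocount of 5 TPM all 3 were thus under 2-fold.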

How the results depend on the processing

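Of 320 member results in 32 comparisons, 181 passed the test, and 128 of these passed under every alternative. Leaving out 1 library ended 43 calls. Fitting only the groups compared lost 22 calls and gained 8, median-ratio scaling lost 18 and gained 13, the analysis without a filter lost 7 and gained 0, a pseudocount of 5 TPM lost 3 and gained 1, and one of 0.1 TPM lost 1 and gained 1. Nfkbie in basal NOD minus C57 turned to 0.26 under median-ratio scaling. Counts of members that moved by over 1.5 times were 3 under that scaling for the SPRET minus C57 response at 24 h (5 before), and, with only the groups compared, 3 for Egr2MKO minus Egr2WT at 6 h (5 before) and 5 for the Egr2MKO response difference at 24 h (3 before). The cause was not tested.

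Leaving out 1 library gave 3 to 5 members for the BALB minus C57 response (3 with all), 3 to 5 for C57 at 1 h (5), 3 to 4 and 3 to 5 for Egr2MKO minus Egr2WT at 0 h (6) and 1 h (6), 0 to 1 for the Egr2MKO response difference at 6 h (0), 4 to 6 for Egr2WT at 6 h (7), 2 to 5 for PWK at 24 h (5), 3 to 5 for SPRET at 6 h (5) and 3 to 6 for SPRET minus C57 at 24 h in the time course (6). An arm left with 1 library is assumed to vary like the others.

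Replicate numbers did not pair the libraries. The mean residual r of same-numbered libraries was 0.013 across strains, 0.030 over the time course and -0.0046 with Egr2. With the replicate block 2 calls were lost and 5 gained, and the BALB minus C57 response, for example, had 4 members in place of 3.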
